A study of Mus musculus with 16 samples.

Results

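In splenic CD4 T cells of mice carrying Eµ-Myc lymphoma, 21 genes stood lower in every library taken 14 days after transplant than in any library taken before or at 7 days. The genes were chosen by their own values: among genes whose CPM (read counts scaled to a common library total) averaged 10 or more over the control and day 7 libraries, ribosomal protein genes left out, those whose highest day 14 value lay below the lowest of the other 12. This rule was met by 21 of 8265 genes (0.254%) in a table of 23479. All 21 encode proteins, and they lie on 14 chromosomes. The mirror image, with the lowest day 14 library above all other 12, was met by 102 genes (1.23%).

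The mice were C57BL/6. The 5 control mice, sampled at day 0, carried no tumour, while 7 mice were sampled at day 7 and 4 at day 14 after transplant of Eµ-Myc cells, a mouse model of B-cell lymphoma in which an immunoglobulin heavy chain enhancer drives the Myc oncogene. CD4 T cells were enriched from the spleen by immunomagnetic negative selection, the stated numbers of mice equal the numbers of libraries, and reads were counted per gene in bulk. In bulk RNA, fewer cells of a kind and less RNA per cell cannot be told apart.

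Several of the 21 genes act in T cell signalling, some of them on routes that restrain it. Cyclic AMP, raised by prostaglandins and adenosine, dampens activation through the T cell receptor, and the phosphodiesterase PDE4B degrades it. TGF-beta restrains T cells through SMAD proteins, and SMAD7 is the feedback inhibitor of that route. The small GTPase RAP1B relays receptor and chemokine signals to integrins and so to adhesion.

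The libraries held 14493764 to 27340070 counts in genes, and the 4 day 14 libraries lay at the low end, from 14731908 to 17067236. Reads outside gene models made up 47.06 to 56.67% in the controls, 54.63 to 67.97% at day 7 and 54.41 to 69.78% at day 14. CD4 T cell markers (Cd3e, Cd3d, Cd3g, Cd4, Cd5, Cd28 and Lck) summed to 2678 to 5081 CPM in the controls, 4048 to 5591 at day 7 and 3552 to 4628 at day 14, so the labelled cell type was present in each library. In the edgeR fit used below, all 7 lay below 0 at day 14, though none was called. Their median log2 difference was -0.295 from control and -0.532 from day 7. The members of the set had medians of -0.656 and -0.526, and all genes of at least 10 CPM had -0.152 and -0.102. Whether the drop of the set goes with that of these markers was not tested. The summed level of 7 neutrophil markers ran from 16.3 to 2018 CPM in the controls and from 18.3 to 1517 at day 14, against 0.754 to 32.1 at day 7. That of 7 B cell markers was 16.8 to 38.2 CPM at day 14, within the 12.05 to 64.9 of the controls, and no listed marker was at 0 in all day 14 libraries. Control libraries 1 and 2 stood apart with high neutrophil or mitosis transcripts, and leaving them out can only relax the rule (101 genes met it).

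For a view of the regulatory sequence of the genes, the window from 250 bases before to 50 after each start site was taken from a table of RefSeq promoters (GRCm38.p6), in which 16 of the 21 were matched. Smad7, Smc4, Ranbp10, 2610019F03Rik and Fam69a had no window there and were not searched. The core of the cyclic AMP response element, TGACGT on either strand, was found in the windows of Pde4b, Rap1b and Cnksr3. That is 3 of 16, against 14.98% of 6716 genes expressed at 10 CPM or more and 8.37% of all 27025 genes with a window. The capitals mark the core, read as ACGTCA where it lies on the other strand, and as the full palindrome TGACGTCA in Rap1b. The Pde4b stretch is chr4:102421508-102421537 on the plus strand, and the first base of the core lies 35 bases before that start site. The Rap1b stretch is chr10:117845998-117846027 on the minus strand, with the core from 42 bases before the start. Both stretches overlap the 5′ untranslated region of a GENCODE transcript (Pde4b-205 and Rap1b-201), so only 30 bases are shown. The Cnksr3 stretch is chr10:7212238-7212487 on the minus strand, overlaps no annotated exon on that strand, and holds the core 59 bases before the start.
Pde4b: tgatttggctgcACGTCAattttctcatct
Rap1b: ggctgaacgccTGACGTCAaggcgacaccg
Cnksr3: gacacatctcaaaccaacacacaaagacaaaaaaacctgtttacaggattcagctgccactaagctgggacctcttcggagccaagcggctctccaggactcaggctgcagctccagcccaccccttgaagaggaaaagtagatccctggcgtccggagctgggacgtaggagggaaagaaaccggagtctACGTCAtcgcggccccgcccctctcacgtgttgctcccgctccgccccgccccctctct
Other motifs occurred at shares that can be read beside the same expressed genes. The E-box CACGTG was in 3 of the 16 windows (Cnksr3, Commd8 and Stk17b) against 12.6%. The GC box GGGCGG was in 12 against 71.5%, the CCAAT box CCAAT in 6 against 43.2%, and the AP-1 letters TGANTCA in 2 (A630033H20Rik and Srp14) against 5.51%. The ETS letters CCGGAAG were in 3 against 24.1% and the TATA letters TATAAA in 2 against 8.20%. The SMAD palindrome GTCTAGAC was in 0 of the 16, which do not include Smad7, and in 0.298% of expressed genes. All motifs were searched on both strands, and the core overlaps its own palindrome. A match describes letters in the window and no more.

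The day 14 mean was below the mean of the other 12 libraries by 17.7% (Fam69a) to 59.6% (2610019F03Rik), with a median of 25.9%. Because the rule used these values, they describe the set and carry no test. Only 3 genes, 2610019F03Rik, Rgcc and Acyp1, had a day 14 mean under 50% of that of the other 12. The separation was mostly narrow: the lowest of the other 12 libraries exceeded the highest day 14 library by 0.429 to 20.9%, with a median of 3.10%. The gap was under 5% in 14 genes and over 10% in 4, namely Acyp1, Ranbp10, 2610019F03Rik and Rgcc. The 95% exact Poisson intervals of the 2 bounding libraries, which cover counting error alone, were apart in 3 genes (Ranbp10, Rap1b and Smc4) and overlapped in 18.

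**Figure D1:**
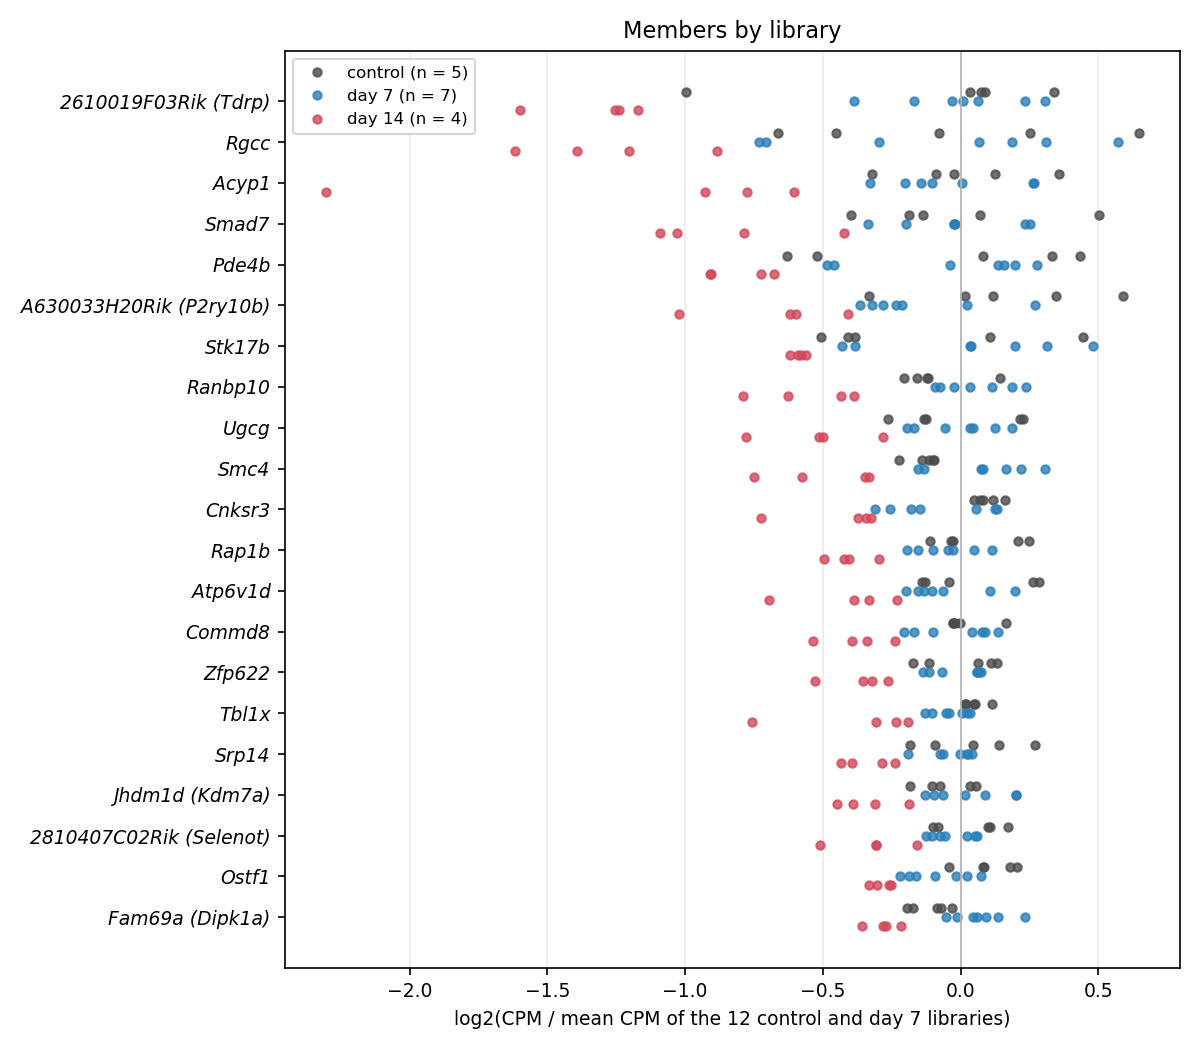
Each point is 1 library, placed by the log2 ratio of its CPM to the mean CPM of the 12 control and day 7 libraries, with 1 line for each of the 21 genes ordered by the day 14 drop. The 4 day 14 points lie left of all others on every line, as the rule requires, and the distance to the nearest other point is small on most lines.

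Among the signalling genes, Pde4b (chr4:102087332-102607275) encodes the phosphodiesterase named above. Its CPM was 297.5, 249.9, 319, 165 and 153 in control libraries 1 to 5, and at day 7 the lowest, median and highest values were 169, 260.0 and 287. At day 14 it was 143, 126, 148 and 126. The 4 day 14 libraries were close to each other, while control libraries 4 and 5 and day 7 libraries 6 and 7 lay only a little above them and the other 8 well above. The group means were 237 ± 75.7 (SD, n = 5), 236 ± 48.0 (n = 7) and 136 ± 11.4 (n = 4), and the edgeR log2 difference of day 14 from day 7, scaled by TMM (trimmed mean of M values), was -0.96 (SE 0.20).

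Rap1b (chr10:117814597-117845974) was at 405, 325, 416, 343.4 and 342 CPM in the controls, between 306 and 379 with a median of 339 at day 7, and at 264, 285, 248 and 261 at day 14. The groups of values were compact, and the highest day 14 library was separated from the lowest other library, day 7 library 4, by more than counting error. The log2 difference from control was -0.66 (SE 0.11) at day 14. Its close relative Rap1a, measured in the same libraries, averaged 87.7 CPM in the controls, 88.5 at day 7 and 89.4 at day 14, a log2 difference of -0.17 (edgeR adjusted p = 0.341). Rap1b and Ranbp10 were the members on a list of 208 small GTPases and their regulators, with a median log2 difference of -0.128. Of these, 9 were lower, both members among them, and 1 was higher at day 14 than in controls. Over all genes tested 1.8% were lower and 1.33% higher, and 3.8% were lower among those of at least 10 CPM.

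Stk17b encodes DRAK2, a kinase that raises the threshold of T cell receptor signalling. Its CPM was 509, 332.5, 643, 356 and 362 in the controls, 350.5 to 658.5 with a median of 485 at day 7, and 320.3, 316, 307 and 314 at day 14. The day 14 libraries differed little (SD 5.41 around a mean of 314.4) and lay just under control library 2, whereas the control values spanned a wide range (440.4 ± 133).

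A630033H20Rik, now named P2ry10b, encodes a G protein-coupled receptor of the P2Y family. It was counted at 13.2, 8.27, 15.7, 10.6 and 11.3 CPM in the controls, 8.09 to 12.6 with a median of 8.87 at day 7, and 6.79, 6.89, 7.85 and 5.13 at day 14. Day 7 lay between control and day 14 in the means (11.8, 9.43 and 6.67 CPM), but day 7 and control libraries overlapped. The gene sat near the level limit of the rule and dropped out when control library 3 was left out, since its mean then fell under 10 CPM.

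Cnksr3, a scaffold protein of the CNK family, was at 21.5, 22.95, 21.7, 21.2 and 22.3 CPM in the controls. It ran from 16.5 to 22.5 at day 7 with a median of 18.5, and was at 16.2, 16.3, 12.4 and 15.8 at day 14. The controls were tight (SD 0.695), some day 7 libraries came near the day 14 level, and 1 day 14 library was lower than the rest.

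**Figure D2:**
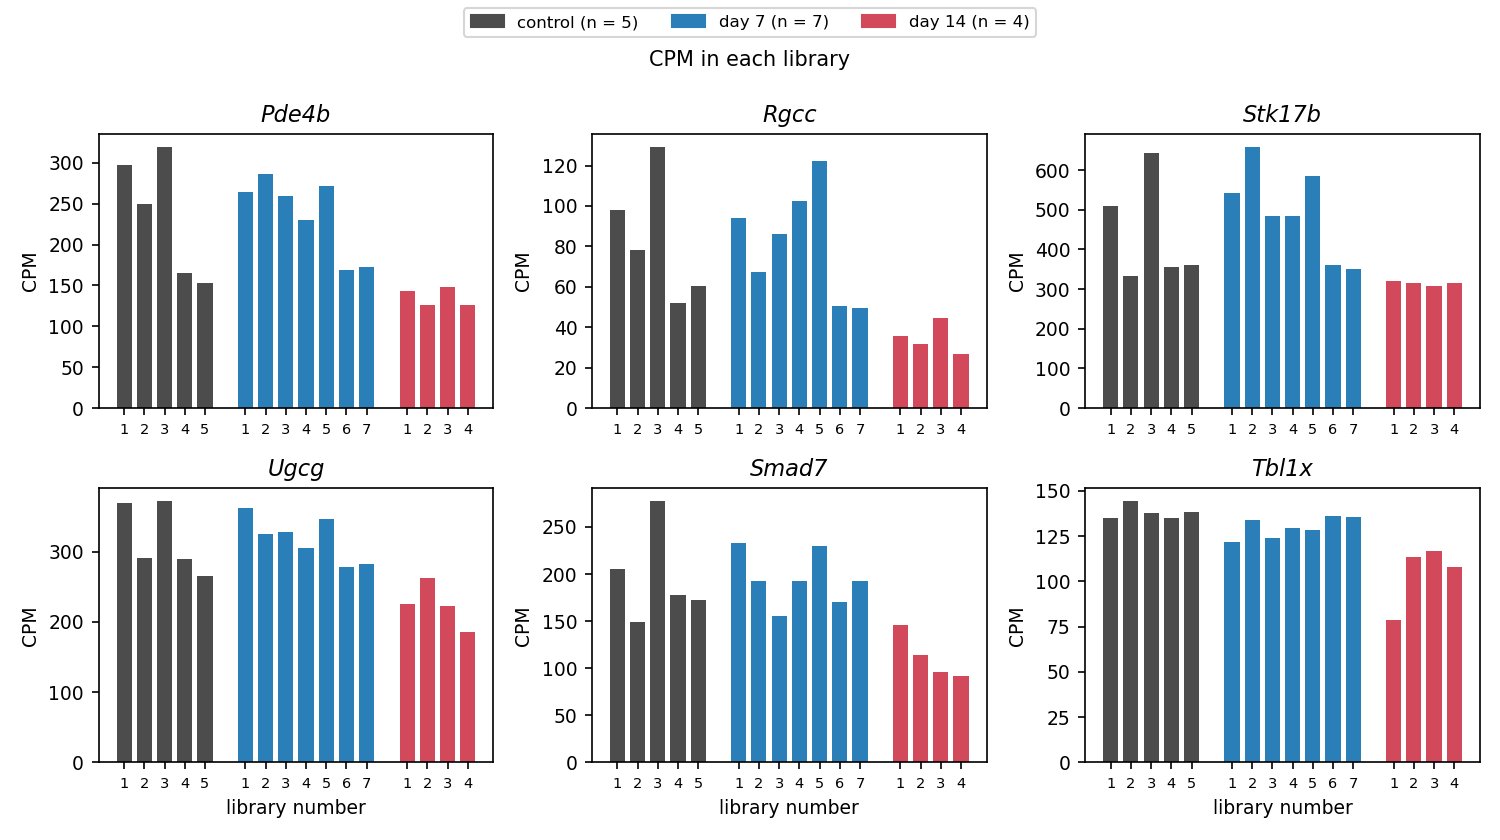
Bars show CPM in each library for Pde4b, Rgcc, Stk17b, Ugcg, Smad7 and Tbl1x, with control, day 7 and day 14 libraries numbered as in the text and axes starting at 0. For Pde4b, Rgcc, Stk17b and Ugcg, controls 1 and 3 lie above the other controls, and day 7 libraries 1 to 5 above day 7 libraries 6 and 7. Tbl1x is even across the controls and day 7.

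The cyclic AMP and Rap1 genes, a list of 22 put together for these members, held no gene called lower at day 14 than in controls by the edgeR test other than the members Pde4b and Rap1b, which the rule chose for being low there, as it did the members in each list count that follows. The list's median log2 difference was -0.112, against 0.119 over all genes tested and -0.152 over the 8265 genes of at least 10 CPM. The genes of 2 other phosphodiesterases missed the threshold: Pde4d (169.7 to 114 CPM in the means, log2 difference -0.77, SE 0.25, adjusted p = 0.091) and Pde3b (185 to 133, -0.66, adjusted p = 0.126). The other 3 on the list, Pde4a, Pde7a and Pde8a, had log2 differences of 0.09, 0.08 and 0.26 with adjusted p-values of 0.931, 0.746 and 0.444.

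Of the genes tied to TGF-beta and growth control, Smad7 encodes the inhibitory SMAD. Its CPM was 205, 149, 277, 178 and 172 in the controls, 155 to 233 with a median of 192 at day 7, and 146, 113.5, 95.8 and 91.8 at day 14. Day 14 library 1 came close to control library 2, and the other 3 day 14 libraries were well below. The means were 196 ± 49.6, 195 ± 28.5 and 112 ± 24.6, a day 14 mean 42.9% under that of the other 12. Rgcc, a regulator of the cell cycle that responds to complement and TGF-beta, showed 98.1, 78.0, 129, 52.0 and 60.2 CPM in the controls and 35.8, 31.4, 44.6 and 26.9 at day 14. At day 7 it ran from 49.6 to 122, with a median of 86.2. Values varied more than 2-fold within control and within day 7, and day 7 library 7 stood nearest to the day 14 libraries. The day 14 mean was 57.9% under that of the other 12, with a log2 difference from control of -1.47 (SE 0.29).

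Of 17 TGF-beta and SMAD genes, chosen with the members known, 3 were lower at day 14 than in controls by the edgeR test. Smad7 and Rgcc were chosen by the rule for being low at day 14, and the third was Skil, a corepressor of SMAD proteins. In that test 1.8% of all genes tested were lower, and 3.8% of those of at least 10 CPM. Skil averaged 162 ± 42.9, 146 ± 17.8 and 113 ± 5.40 CPM in control, day 7 and day 14, a log2 difference from control of -0.71 (SE 0.16, adjusted p = 0.027). The receptor gene Tgfbr2 (364 to 339 CPM) and Smad2 (71.0 to 70.7 CPM) had adjusted p-values of 0.263 and 0.210 in the same test.

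Genes of chromosomes, chromatin and the nucleus followed. Smc4 (chr3:69004738-69034623) encodes a core subunit of condensin, the complex that compacts mitotic chromosomes. It was at 1014.5, 995, 1024, 1026 and 941 CPM in the controls, 986 to 1358 with a median of 1163 at day 7, and 652, 872, 864.5 and 738 at day 14. The controls were nearly equal (SD 35.1 around 1000.3), 5 day 7 libraries were above all of them, and all day 14 libraries were below. Condensin partner Smc2 averaged 121, 55.3 and 96.7 CPM in the same order, with an adjusted p of 0.479 for day 14 against control, and none of the 13 condensin and cohesin genes other than Smc4 was called lower. The summed level of 19 mitosis genes was 625.3 to 2816 CPM at day 14, 369 to 5017 in the controls and 249.1 to 911 at day 7, and these 3 ranges overlapped. Gene by gene, all 19 were higher at day 14 than at day 7 (median log2 difference 1.49), though none was called. Smc4 stood at -0.73 and Smc2 at 0.68 (adjusted p = 0.416) in that edgeR comparison. Of the 13 condensin and cohesin genes, 8 lay below 0 there, with a median of -0.021. The condensin genes Ncapg (1.53), Ncaph (1.48), Ncapg2 (1.01) and Ncapd2 (0.81) lay above 0 as Smc2 did, and Ncapd3 (-0.12) and Ncaph2 (-0.02) below. The cohesin genes Smc1a, Smc3, Rad21, Stag1 and Stag2 lay between -0.25 and -0.02. Apart from Smc4, no gene of this list was called in that comparison. An intron of Smc4 hosts the miRNA genes Mir15b and Mir16-2, which had at most 2 and 10 counts in any library.

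Tbl1x encodes a subunit of the NCoR corepressor complex. It was the steadiest of the set outside day 14, at 135, 144, 138, 135 and 138 CPM in the controls and 122 to 136 (median 129.6) at day 7, against 78.9, 113, 117 and 108 at day 14. Day 14 library 1 lay far below the other 3. Its homologue Tbl1xr1 averaged 167 CPM in controls, 167.0 at day 7 and 178 at day 14 (adjusted p = 0.586, day 14 against control). Jhdm1d, now named Kdm7a, is a Jumonji histone demethylase and had the narrowest gap of all, 0.429%. Its CPM was 268, 244.5, 264, 239 and 227 in the controls, 235 to 296 (median 260.1) at day 7 and 208, 189, 226 and 197 at day 14, so control library 5 and day 14 library 3 nearly met.

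Ranbp10, a scaffold of the Ran-binding protein family, was at 177, 178, 213, 167.5 and 173 CPM in the controls, 181 to 228 (median 198) at day 7 and 125, 143, 148 and 112 at day 14. The gap of 13.3% exceeded counting error, and all day 7 libraries lay above the median control. Zfp622, whose yeast counterpart takes part in the maturation of the large ribosomal subunit, was at 114, 108, 112, 95.7 and 92.0 CPM in the controls, 94.3 to 109 at day 7 and 86.3, 83.0, 81.2 and 71.9 at day 14. Its groups were compact and close to each other. Among 536 measured transcription factor genes, a list that holds Zfp622, 6 were lower and 8 higher at day 14 than in controls, near the 1.8% and 1.33% of all genes tested. Of 9 large-subunit maturation genes, none other than Zfp622 was called lower at day 14 than in controls.

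The genes of membranes, organelles and secretion had drops of 17.7 to 29.7%. Ugcg encodes glucosylceramide synthase, the first step of glycosphingolipid synthesis. It was at 369.8, 291.5, 372, 289.9 and 265 CPM in the controls, 278 to 362 with a median of 326 at day 7, and 225, 262, 223 and 185 at day 14. Day 14 library 2 almost reached control library 5, a gap of 1.20%. Of 15 sphingolipid genes, 2 were lower at day 14 than in controls, the member Ugcg and, outside the set, the sphingomyelin synthase gene Sgms1 (76.6 ± 7.998 against 58.1 ± 5.09 CPM, log2 difference -0.59, SE 0.12, adjusted p = 0.022). The same test called 1.8% of all genes tested lower, and 3.8% of those of at least 10 CPM.

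Atp6v1d, a subunit of the proton pump that acidifies lysosomes, was at 136, 135, 179, 182 and 145 CPM in the controls, 130.1 to 171 at day 7 and 114, 127, 118 and 92.2 at day 14. Day 14 library 4 was the lowest and library 2 came near the lowest day 7 library. Of the 8 measured genes of the pump's V1 sector, 2 were lower at day 14 than in controls, the member Atp6v1d and, outside the set, Atp6v1e1 (55.5 ± 10.6 to 44.7 ± 4.97 CPM, adjusted p = 0.033). Srp14 encodes a subunit of the signal recognition particle that guides nascent secretory proteins to the endoplasmic reticulum. It ran from 51.9 to 71.1 CPM in the controls, from 51.5 to 60.7 at day 7 and from 43.6 to 49.99 at day 14. The reticulum protein SELENOT is encoded by 2810407C02Rik, which ran from 121 to 146 CPM in the controls, from 119 to 135 at day 7 and from 91.0 to 116 at day 14. Fam69a, now Dipk1a, had the smallest drop, from 34.1 to 38.2 CPM in the controls and 37.6 to 45.8 at day 7 to 30.4 to 33.6 at day 14. Of 77 secretory pathway genes, a list with Srp14, 3 were lower and 0 higher at day 14 than in controls, and of 53 lysosome and proton pump genes, a list with Atp6v1d, 4 were lower and 1 higher. Among all genes of at least 10 CPM, 3.8% were lower. For Srp14, 2810407C02Rik and Fam69a the highest day 14 library and the lowest other library were within counting error of each other.

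The remaining genes share no pathway. 2610019F03Rik, now named Tdrp and on the list of naive T cell genes, had the deepest drop. It was at 63.7, 31.2, 78.6, 65.4 and 66.1 CPM in the controls, 47.6 to 76.9 (median 62.6) at day 7 and 26.3, 26.1, 27.6 and 20.5 at day 14. Day 14 was uniform, and control library 2, the library with the most mitosis transcripts (5017 CPM), lay far below the other controls and next to day 14; the part of those transcripts was not tested. Of the 24 naive T cell genes, 4 were lower, 1 of them this member, and 1 higher at day 14 than in controls. Over all genes tested 1.8% were lower and 1.33% higher, and 3.8% were lower among those of at least 10 CPM. The others lower included Ccr7, the lymph node homing receptor (log2 difference -1.01, adjusted p = 0.042).

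Acyp1, a small acylphosphatase, was at 18.7, 16.1, 13.7, 16.8 and 21.9 CPM in the controls, 13.6 to 20.5 at day 7 and 3.46, 9.99, 11.2 and 8.99 at day 14. It had the widest gap, 20.9%, but also the most uneven day 14 libraries, with library 1 far below the others. Commd8, a member of the COMMD family, ran from 64.2 to 73.4 CPM in the controls, 56.9 to 71.96 at day 7 and 45.2 to 55.6 at day 14. Ostf1, an adaptor protein first named for osteoclasts, ran from 97.7 to 116, 86.4 to 106 and 79.9 to 84.4 in the same order.

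The rule did not compare day 7 with control, but it required both to lie above day 14, which leaves out genes already low at day 7. A test of day 7 against control is given with that limit. In the edgeR quasi-likelihood fit to 18430 genes with Benjamini-Hochberg adjustment at 0.05, 0 of the 21 were higher and 0 lower, while 2 genes (0.0109%) were higher and 0 (0.0%) lower over the whole table. DESeq2 also called 0 of the 21, but over the whole table it called 499 genes higher and 1104 lower. The log2 differences ran from -0.37 (A630033H20Rik) to 0.19 (Smc4), with 6 above 0 and 15 below and a median of -0.064, against 0.066 for all genes tested and -0.03 for the 8265 genes from which the 21 were drawn. Adjusted p-values lay between 0.124 and 0.996. The unadjusted p was under 0.05 for 1 member, Ostf1 (log2 difference -0.23, SE 0.08, adjusted p = 0.124), and for 1553 genes higher and 2337 lower in all. The 95% half-widths of the members' differences reached 0.51 on the log2 scale, so smaller day 7 differences were not detectable for the most variable of them.

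**Figure D3:**
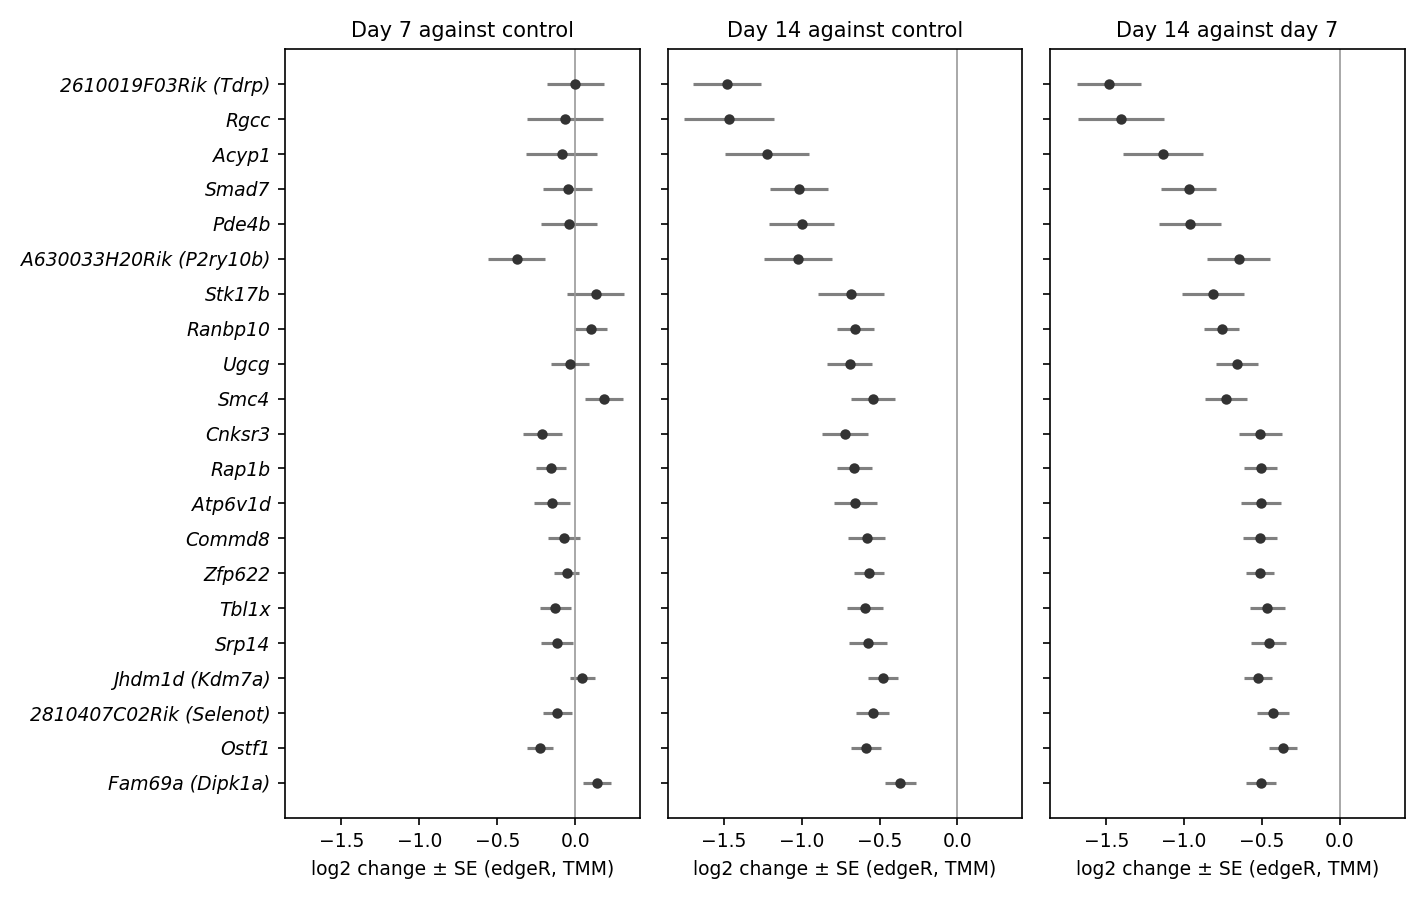
Points are edgeR log2 differences (TMM-scaled) with bars of 1 SE for the 21 genes, in panels for day 7 against control, day 14 against control and day 14 against day 7. Day 7 points scatter around 0 between -0.37 and 0.19, and day 14 points lie left of 0 in both other panels, which the rule fixed.

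Against control, 19 of the 21 were called lower at day 14, where 331 genes (1.8%) were lower in the whole table and 3.8% among those of at least 10 CPM. Against day 7, 14 were called, where 102 genes (0.553%) were lower, 1.21% among those of at least 10 CPM. The rule used both contrasts, they share the day 14 libraries, and nothing is read from these counts. The median log2 difference of the 21 was -0.656 from control and -0.526 from day 7. It was 0.119 and 0.124 for all genes tested, and -0.152 and -0.102 for the 8265 genes from which the 21 were drawn. With library totals in place of TMM, the median of all genes moved from 0.119 to 0.322 and that of the 21 from -0.656 to -0.463, a shift of all genes by about the same amount. Reads outside gene models took a larger share at day 14 than in most controls. With that share as a covariate, 0 of the 21 were called against control, and their median was -0.512. Over the whole table that fit called 1 gene higher and 0 lower, so the loss of calls was not particular to the 21.

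The scaling decided how many genes met the rule. Scaled by TMM, 98 genes met it, among them 18 of the 21 (2810407C02Rik, Commd8 and Srp14 dropped out), and the mirror image held 40 genes in place of 102. Single libraries also limited it. Without control library 2 it was met by 63 genes, and without day 14 library 2 by 79; leaving out a library can only relax the rule apart from its limit on the mean level, so it says nothing of how stable the 21 are.

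**Figure D4:**
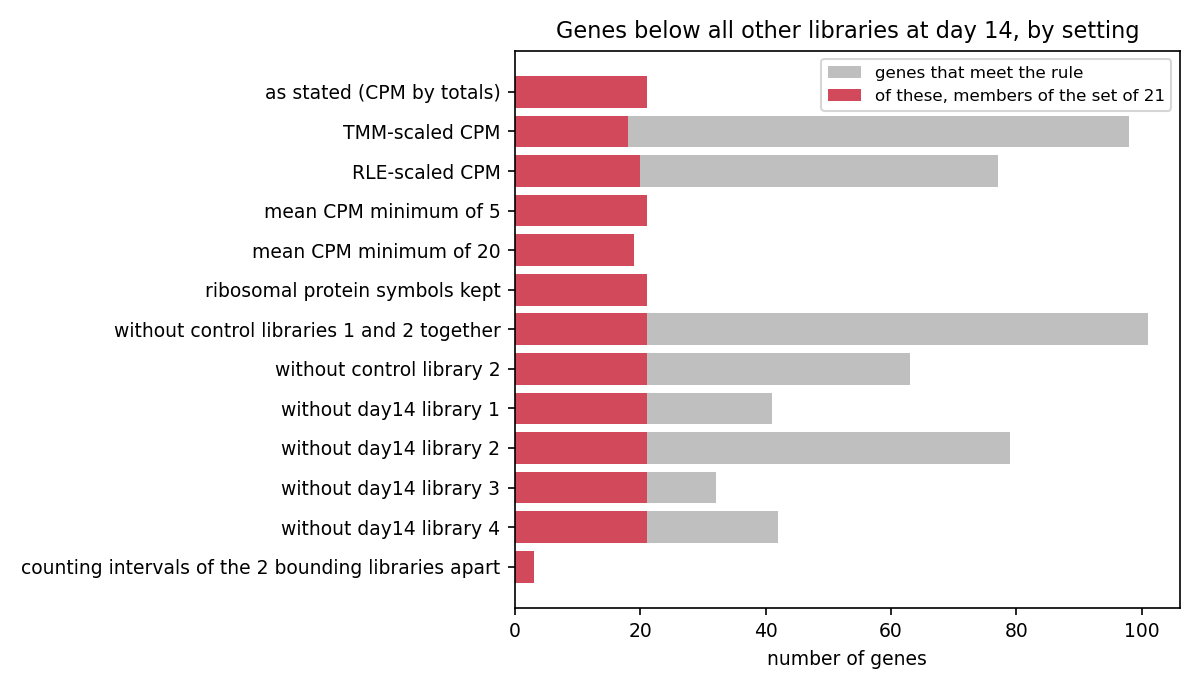
Bars give the number of genes that met the rule under each setting, with the members of the set of 21 in red and further genes in grey. The number rises to 98 with TMM scaling and 101 without control libraries 1 and 2, and falls to 3 where counting intervals must be apart.

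Just outside the rule stood Ppp3ca, the calcineurin catalytic subunit, Btg2, an antiproliferative early response gene, and Mppe1. Each had 1 other library at or below its highest day 14 value, with ratios of 0.993, 0.991 and 0.991 between the bounding libraries. Just inside stood Jhdm1d, Ugcg and Cnksr3, with gaps of 0.429, 1.20 and 1.22%. The difference between these 2 groups is far below the spread between replicates. Day 14 library 3 set the upper bound in 9 genes, library 2 in 8, library 1 in 3 and library 4 in 1. The lower bound came from a control in 10 genes and from day 7 in 11, most often control library 5 (6 genes) and day 7 library 7 (4 genes).

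Within groups the members fell into subsets, noticed after the values were seen and not tested. Day 7 libraries 6 and 7 were below the other 5 day 7 libraries in 7 genes (Jhdm1d, Pde4b, Ranbp10, Rgcc, Smc4, Stk17b and Ugcg), a pattern of 11.3% of the 8265 genes. Control libraries 1 and 3 were above the other 3 controls in 10 members, a pattern of 10.1%. Both held in Jhdm1d, Pde4b, Rgcc, Stk17b and Ugcg, 5 of 21, against 4.20% of the 8265. The opposite day 7 pattern, libraries 6 and 7 above the other 5, held in 2 members, against 21.6% of the 8265. Day 7 libraries 6 and 7 were also the day 7 libraries with Y-linked transcripts, as were control libraries 1 and 2 and day 14 library 4, whose part in the subsets was not tested. With that difference as a covariate, 20 of the 21 were called lower at day 14 against control and 21 against day 7. Over all genes tested, that fit called 542 genes lower against control and 475 against day 7, where the main fit called 331 and 102. The rule used both contrasts, so nothing is read from the members' counts here.

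The transcripts of the members were compared with 8099 expressed genes that had a GENCODE vM21 protein-coding transcript. Their median GC content was 45.9% against 49.9%, with 16 of 21 under the median of all, and 10 of the 21 fell in the lowest of 5 equal GC classes. The median 3′ untranslated region was 1920 bases against 1110, with 17 above the median of all, while transcript length was alike (3293 against 3188 bases). AU-rich letters ATTTA were in that region of 18 genes (85.7%) against 69.4% of all, and TATTTAT in 11 (52.4%) against 29.9%. Per kilobase there were 2.31 ATTTA against 1.86, and 0.313 TATTTAT against 0.287. The 5 equal GC classes of these 8099 genes differed little at day 14, with median log2 differences from control between -0.173 and -0.13. Smc4 had one of the shortest regions, 97 bases without ATTTA, and Jhdm1d the longest, 6588 bases with 19. These shares are a description of a set picked by expression, with no test.

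**Figure D5:**
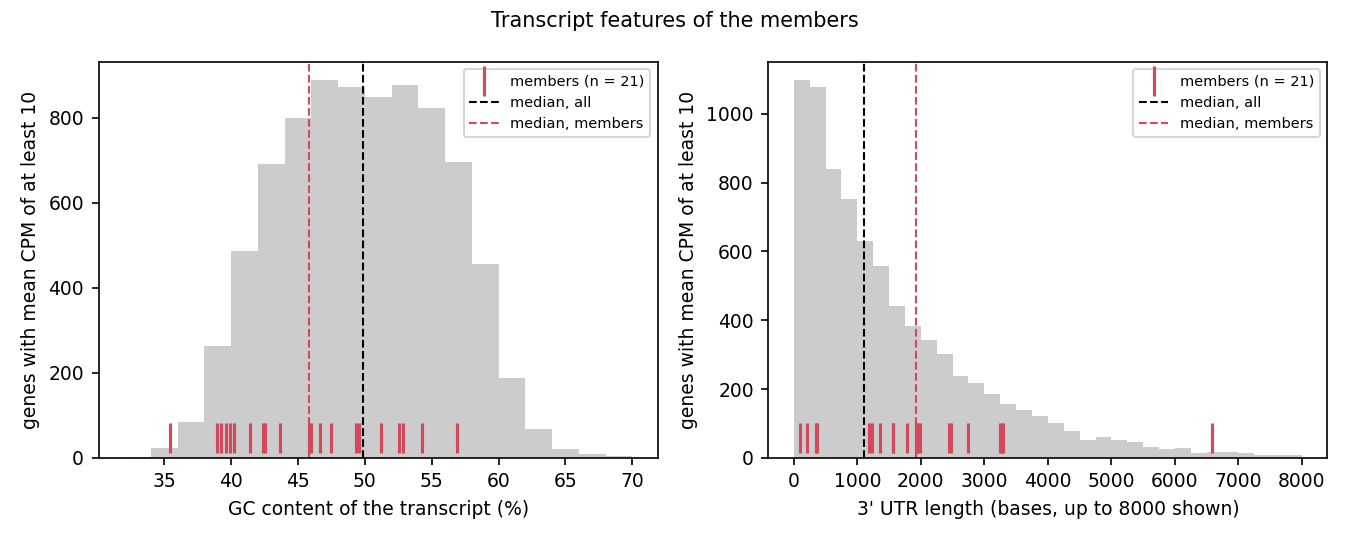
Grey histograms show GC content in percent and 3′ untranslated region length in bases for the 8099 expressed genes, red ticks the 21 members and dashed lines the medians. The members' median lies lower for GC (45.9 against 49.9%) and higher for length (1920 against 1110 bases).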

How the data were processed

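The deposited table holds raw counts of reads per gene for 16 libraries of splenic CD4 T cells (NuGEN mouse RNA-seq kit, 100 ng of RNA, per the labels). Per the submitters' processing notes, HTSeq 0.6.1 and the mm10 build were used, besides cutadapt 1.8.1 and bcl2fastq 2.20.0.422. The aligner, annotation and strand setting are not given in the sources used here. Lines that name no gene were left out; reads outside gene models (47.06 to 69.78%) and reads at multiple positions (6.67 to 10.13%) made up nearly all of them. Columns were matched to samples by their descriptions.

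CPM was computed from column totals. Differences were fitted with edgeR 4.0.16 in R 4.3.3 (filterByExpr, TMM, quasi-likelihood test over all 16 libraries, 18430 of 23479 genes) and tested on simulated data. P-values weigh the difference between groups against the spread between these libraries, estimated over all 16. Alternatives were RLE and total scaling, no filter, fits to 2 groups, a replicate block, leaving out libraries, DESeq2 1.42.0, limma 3.58.1 voom, and, chosen after seeing the data, covariates for reads outside gene models and for Y-linked transcripts and the counting intervals. The members and the gene lists were chosen with earlier results of these data known. Named genes followed a rule of size, level and gap, and the members outside it were added after their values were seen so that all 21 are described. Motifs, coordinates and older symbols (5 members) came from RefSeq GRCm38.p6, transcripts from GENCODE vM21.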

Additional observations from a re-analysis of the deposited data

Results flagged for a closer look

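In 63 tests of 1 library against the rest of its group (Dixon's criterion at 95%), 3 stood out, and chance gives about 1 in 20 (3.1). Cnksr3 was at 12.4 CPM in day 14 library 3, against 15.8 to 16.3 in the other 3. Commd8 was at 73.4 CPM in control library 3, against 64.2 to 65.3 in the other 4. Ranbp10 was at 213 CPM in control library 3, against 167.5 to 178 in the other 4.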

How the results depend on the processing

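For day 7 against control, 0 of the 21 genes were called in each setting run, and their median log2 difference stayed between -0.113 and 0.042. Over all genes that comparison moved more: DESeq2 called 499 higher and 1104 lower, and the fit without control library 5 called 388 and 728. The number of genes that met the rule was 21 as stated, 98 with TMM scaling, 77 with RLE scaling, 101 without control libraries 1 and 2 and 3 with counting intervals apart. Leaving out 1 library at a time gave 21 to 79, with 63 without control library 2 and 41, 79, 32 and 42 without day 14 libraries 1 to 4. Leaving out a library can only relax the rule, apart from its limit on the mean level, by which A630033H20Rik was lost without control library 3; these numbers say nothing of how stable the 21 are.

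For day 14 against control, the 19 calls became 0 in a fit to these 2 groups alone (median -0.645) and 0 with the share of reads outside gene models as a covariate, which gave a median of -0.512. Over the whole table these fits called 0 genes lower, and 4 and 1 higher, so the loss was not particular to the 21. Leaving out 1 library gave 2 to 21 calls and a median from -0.761 to -0.53, with 2 calls without control library 3, 10 without control library 4, and 4, 8 and 8 without day 14 libraries 1, 3 and 4. The whole table then held 18, 83, 27, 23 and 54 lower genes in the same order. Library totals gave a median of -0.463, and turned 246 higher and 331 lower genes in the whole table into 690 and 100. For day 14 against day 7, the 14 calls became 8 with library totals (median -0.366) and 8 with that covariate. Leaving out 1 library gave 2 to 19 calls and a median from -0.637 to -0.516, with 4, 7 and 4 calls without day 7 libraries 1, 4 and 5 and 3, 3 and 2 without day 14 libraries 1, 3 and 4. Lower genes over the whole table were then 13, 32 and 14, and 10, 8 and 12. Fewer samples enter the fits that leave out libraries or groups; otherwise the cause was not tested.

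The replicate number gave no pairing: 13 pairs of libraries with the same number had correlations of their deviations from -0.31 to 0.309, against -0.53 to 0.537 for 70 others. A replicate block left 4 calls against control (median -0.67) and 6 against day 7 (median -0.611), where 21 and 19 genes were lower over the whole table. In the 10 settings tallied gene by gene, no called value changed sign. The rule placed all day 14 values below the others, so the day 14 signs were largely fixed in advance and nothing is read from this. Against control at day 14, 150 of 210 gene values kept their side of the threshold, 56 lost the call and 4 gained it, and against day 7 these were 163, 21 and 26; at day 7 against control no member was called. The genes counted near 10 CPM rest on few counts, 134 for A630033H20Rik in its highest day 14 library.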
